A study of Mus musculus with 144 samples.

Results

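The genes described here are the kinases and phosphatases that switch the pyruvate dehydrogenase complex off and on, with the subunit they act on. The members were the rows of the deposited expression tables whose gene symbol is Pdk1, Pdk2, Pdk3, Pdk4, Pdp1, Pdp2 or Pdha1, which made 7 of the 24421 genes of the tables. Each had 1 row in each table except Pdp1, for which 1 of 5 transcript rows was kept, the row with the largest mean.

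Pyruvate dehydrogenase sits in the mitochondrial matrix and turns pyruvate into acetyl-CoA, the step that commits carbohydrate carbon to oxidation or fat synthesis. Pdha1 encodes its E1 alpha subunit, and phosphate placed on that subunit stops the enzyme. The pyruvate dehydrogenase kinases (Pdk1 to Pdk4) place it and the phosphatases (Pdp1 and Pdp2 encode their catalytic subunits) remove it. In liver, Pdk2 is the widely expressed kinase and Pdk4 is the one known to rise on fasting, when glucose is spared and fatty acids are burned.

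All mice were male C57BL/6J on normal chow. Controls are labelled WT and the other genotype is labelled REV-ERB a/b double knockout, placed by the design text in hepatocytes of adult animals; REV-ERBα and REV-ERBβ (genes Nr1d1 and Nr1d2) are repressors in the circadian clock. The column names of the tables give GFP for the controls and CRE for the knockouts, so what was delivered differs along with genotype and cannot be told apart from it. Liver RNA came from mice fed ad libitum or on a reverse-phase schedule. It was taken at zeitgeber time (ZT, counted in hours from lights on) 1, 4, 7, 10, 13, 16, 19 and 22, and RNA of isolated endothelial cells and Kupffer cells, the liver's macrophages, at ZT 4, 10, 16 and 22. Each of the 48 groups had 3 libraries. The labels do not say that the 3 came from separate animals, so a p-value here measures only how the libraries spread, which may be technical.

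Total counts ran from 4568000 to 10360000 in the ad libitum libraries and from 13120000 to 26190000 in the reverse-phase ones. Values are given as normalised CPM (counts scaled to a common library size), and differences as knockout minus control on the log2 scale. The clock activators Arntl and Npas2, which REV-ERBs repress, were higher in knockout liver by 1.62 ± 0.12 and 3.94 ± 0.17 (SE) ad libitum. Nr1d1 and Nr1d2 RNA was also higher in the knockout libraries, by 1.76 ± 0.15 and 1.11 ± 0.10. The counts cover the whole transcript and the deleted exons are not given, so these values do not check the deletion. The 12 hepatocyte markers measured summed to 10.9 to 16.6% of counts ad libitum, and the defining endothelial and Kupffer markers were detected at a low level. Ad libitum libraries that stood apart in spread, in slope on transcript length or in ribosomal RNA (Rn45s over 5% of counts) were control ZT 16 numbers 2 and 3, control ZT 22 number 2 and knockout ZT 16 number 3. The cut was relative to the libraries of the same table, and no reverse-phase library passed it. Yet reverse-phase control ZT 19 numbers 2 and 3 had spreads of 0.196 and 0.169 and slopes of 0.182 and -0.153. Ad libitum control ZT 16 number 2, which stood apart, had 0.158 and -0.112. In endothelial cells knockout ZT 22 numbers 1 and 3 stood apart in spread (0.170 and 0.196), and number 2 of that group had 0.163. The ribosomal criterion was applied to liver only, and Rn45s took 1.71 to 8.69% of the signal over the endothelial libraries. The endothelial columns share 1 set of sorted values, so this percentage reflects only the rank of Rn45s and does not measure ribosomal RNA.

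Per kilobase of transcript, Pdk2 and Pdha1 were the abundant members in liver and Pdk3 was almost absent. Over the 48 ad libitum libraries the median level was 45.2 normalised CPM per kilobase for Pdha1, 40.5 for Pdk2 and 17.3 for Pdk1. Pdp2 came next at 6.27 and Pdk4 at 4.57, with ranges of 3.66 to 10.8 and 0.24 to 15.5 that overlap. Pdp1 had a median of 0.31 and Pdk3 of 0.12. The order was the same under reverse-phase feeding, with medians of 53.7 for Pdha1, 47.0 for Pdk2, 13.9 for Pdk1, 4.93 for Pdp2, 3.53 for Pdk4, 0.29 for Pdp1 and 0.17 for Pdk3. Pdk3 was read 0 to 5.5 times per ad libitum library. Its counts there were too low to pass the filter for testing, and 6 members were tested among 12534 genes. Under reverse-phase feeding all 7 were tested among 13810.

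On the mm9 build the kept rows place Pdk1 (NM_172665) at chr2:71711281-71741915 on the plus strand and Pdk2 (NM_133667) at chr11:94887572-94902685 on the minus strand. Pdk3 (NM_145630) lies at chrX:91009955-91077434 and Pdk4 (NM_013743) at chr6:5433351-5446278, both on the minus strand. Pdp1 (NM_001033453) lies at chr4:11885332-11893597 on the minus strand, Pdp2 (NM_001024606) at chr8:107115368-107120749 on the plus strand and Pdha1 (NM_008810) at chrX:156560151-156576362 on the minus strand. Each value counts reads over the whole annotated transcript, untranslated regions included.

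Ad libitum, Pdk2, Pdk4 and Pdp2 were the members called in the test for a genotype difference at any of the 8 times, so their promoters are shown. Each runs 5′ to 3′ from 250 bases before to 50 after the transcription start, from RefSeq on GRCm38.p6, with any match to a searched motif in capitals.
Pdk4, chr6:5496229-5496528, minus strand: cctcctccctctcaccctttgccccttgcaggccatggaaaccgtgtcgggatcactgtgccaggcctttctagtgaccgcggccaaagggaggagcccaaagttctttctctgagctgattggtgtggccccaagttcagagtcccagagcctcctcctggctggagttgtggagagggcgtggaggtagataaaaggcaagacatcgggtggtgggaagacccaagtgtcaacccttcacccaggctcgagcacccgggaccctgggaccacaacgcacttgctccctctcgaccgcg
Pdk2, chr11:95041322-95041621, minus strand: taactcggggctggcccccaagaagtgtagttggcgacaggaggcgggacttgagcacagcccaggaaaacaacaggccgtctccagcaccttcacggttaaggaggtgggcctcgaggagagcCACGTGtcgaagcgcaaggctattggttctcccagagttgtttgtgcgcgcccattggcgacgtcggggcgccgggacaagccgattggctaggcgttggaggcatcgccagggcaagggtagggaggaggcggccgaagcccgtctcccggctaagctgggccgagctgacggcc
Pdp2, chr8:104591222-104591521, plus strand: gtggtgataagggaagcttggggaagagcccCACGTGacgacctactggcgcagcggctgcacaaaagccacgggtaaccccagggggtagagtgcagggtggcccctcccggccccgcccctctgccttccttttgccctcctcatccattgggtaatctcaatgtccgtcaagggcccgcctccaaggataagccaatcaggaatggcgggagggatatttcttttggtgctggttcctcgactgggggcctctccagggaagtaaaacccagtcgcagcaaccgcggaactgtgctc

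The motifs searched, on both strands, were the nuclear receptor half-site AGGTCA, the E-box CACGTG, the D-box TTATGTAA and the forkhead motif GTAAACA. None contains another. They are found in 16.2%, 7.17%, 0.931% and 3.66% of all 32544 promoters of the same length. Of the 6 members with an entry, Pdk2 and Pdp2 each held 1 E-box, starting 126 and 219 bases before the start site. The Pdk2 match is in 1 of 2 listed promoters. The Pdk4 window held none of these letters, which says nothing of binding elsewhere. Pdp1 was named only.

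Ad libitum, Pdk4 was higher in the knockout, and by time the difference was called at ZT 7 and ZT 10 and at none of the other 6 times. At ZT 7 the control libraries had 2.17, 9.72 and 4.14 normalised CPM of Pdk4 and the knockout libraries 53.3, 37.6 and 23.2. The groups did not overlap, and the lowest knockout library was above all 3 controls. At ZT 10 the controls had 0.83, 3.23 and 2.84 and the knockouts 9.44, 16 and 5.68, again without overlap.

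In controls, Pdk4 fell away during the light phase and climbed back at night. Its control means were 22.6 ± 6.6 normalised CPM (SD, n = 3) at ZT 1 and 22.9 ± 12 at ZT 4. They were 5.34 ± 3.91 at ZT 7, 2.30 ± 1.29 at ZT 10 and 3.82 ± 2.49 at ZT 13, then 7.64 ± 2.09 at ZT 16, 17.0 ± 4.9 at ZT 19 and 17.2 ± 6.3 at ZT 22. The knockout means were 35.2 ± 4.8 at ZT 1, 28.1 ± 13 at ZT 4 and 38.0 ± 15.1 at ZT 7, then 10.4 ± 5.2 at ZT 10 and 5.84 ± 4.48 at ZT 13. They came back through 11.7 ± 3.4 at ZT 16 and 24.4 ± 11.5 at ZT 19 to 24.9 ± 5.7 at ZT 22. Knockout libraries thus stayed high at ZT 7, when controls were already low.

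**Figure D1:**
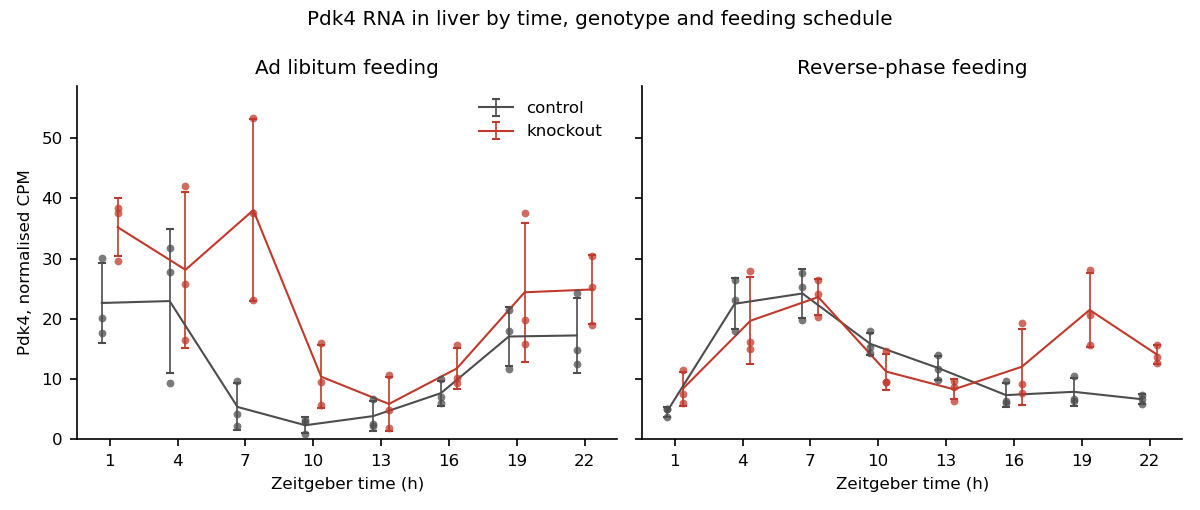
Pdk4 in liver, in normalised CPM, against zeitgeber time in hours for ad libitum (left) and reverse-phase feeding (right). Points are libraries, lines join group means, bars are SD over 3 libraries, grey is control and red is knockout; ad libitum the knockout libraries at ZT 7 lie at 23.2 to 53.3 and the controls at 2.17 to 9.72, and under reverse-phase feeding the knockout mean has high points at ZT 7 and ZT 19.

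The fitted daily mean of Pdk4 was 1.02 ± 0.22 higher on the log2 scale in the knockout ad libitum (edgeR quasi-likelihood test, Benjamini-Hochberg adjusted p = 0.000279; calls use a threshold of 0.05), a 2.02-fold difference. At ZT 7 the difference was 2.84 ± 0.54 (adjusted p = 0.000748) and at ZT 10 it was 2.16 ± 0.68 (adjusted p = 0.0482). Over the remaining 6 times it was 0.27 to 0.64, with adjusted p of 0.532 to 0.89. A 24-hour rhythm of Pdk4 was called in both genotypes. Its peak-to-trough range was 2.94 on the log2 scale in controls, peaking at ZT 23.65 ± 0.62 (adjusted p = 1.41e-05). In knockouts it was 2.04, peaking at ZT 1.80 ± 0.79 (adjusted p = 0.000511). The test of the difference between these curves missed the threshold, with a range of 1.63 for the difference curve and an adjusted p of 0.307. The ZT 10 call was weak: the adjusted p was 0.0632 without the libraries that stood apart, 0.0745 with no filter on low genes, and above 0.05 in 31 of the 48 fits that left out 1 library, of either genotype (0.036 to 0.252). The ZT 7 call held in all 48 (up to 0.0178).

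Pdk2 differed between genotypes ad libitum in its daily rhythm, while the difference of its daily means did not pass the test. In controls it was highest at ZT 7 and ZT 10. The control libraries had 117, 107 and 123 normalised CPM at ZT 7, and 113.8, 126.8 and 113.8 in the ZT 10 group. They were lower later in the dark, with 69.9, 82.4 and 80.3 for ZT 16 and 81.0, 73.1 and 74.6 for ZT 19. The ZT 7 and ZT 10 libraries lay above all those of ZT 16 and ZT 19. In knockouts the values were 104, 82.5 and 86.2 at ZT 7, 91.5, 86.1 and 98.5 for ZT 10, and 90.5, 114.8 and 100.3 for ZT 19. They lay below the controls at ZT 7 and ZT 10, and above them at ZT 19, without overlap. Knockout libraries also lay above all controls at ZT 1, which was not called (means 94.3 and 76.0).

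The control rhythm of Pdk2 had a range of 0.68 on the log2 scale and a peak at ZT 8.64 ± 0.45 (adjusted p = 6.78e-09). In the knockout the range was 0.13 (adjusted p = 0.364), and the difference between the curves was called (range of the difference 0.75, adjusted p = 2.48e-05). The daily means differed by 0.05 ± 0.04, with a 95% interval from -0.03 to 0.13 (adjusted p = 0.398). At ZT 7 and ZT 10 the difference was -0.35 and -0.36 (SE 0.10 at both; adjusted p = 0.0381 and 0.0265), and at ZT 19 it was 0.42 ± 0.11 (adjusted p = 0.0185). Each of these time points rests on 3 libraries a group: 4, 3 and 4 fits without 1 of those libraries lost the call (adjusted p up to 0.218, 0.137 and 0.175). These were control numbers 1 and 3 and knockout numbers 2 and 3 at ZT 7, control number 2 and knockout numbers 1 and 2 at ZT 10, and at ZT 19 numbers 2 and 3 of each genotype. The rhythm difference was called in all 48 (up to 9.78e-05).

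Pdk1, a kinase known as a target of hypoxia signalling, was lower in the knockout. Its 24 control libraries ranged from 61.0 to 134.6 normalised CPM with a median of 97.5, and the 24 knockout libraries from 40.5 to 133.1 with a median of 76.7. The ranges overlap widely. The daily mean fell by 0.31 on the log2 scale (SE 0.09, adjusted p = 0.00752), and no rhythm of Pdk1 was called in either genotype (adjusted p = 0.252 and 0.159).

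The phosphatases moved in opposite directions. Pdp2, a phosphatase known to respond to insulin, was lower in the knockout, most of all late in the light phase. At ZT 10 the controls had 27.7, 23.0 and 32.1 normalised CPM and the knockouts 16.2, 14.3 and 16. At ZT 13 the controls had 22.1, 30.9 and 23.1 and the knockouts 14.3, 19 and 16.4. Neither time showed overlap. Nor did ZT 1 and ZT 22, which were not called (control means 22.3 and 27.7, knockout means 19.1 and 21.3).

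The daily mean of Pdp2 fell by 0.38 ± 0.08 (adjusted p = 0.000151). The difference was -0.83 ± 0.19 at ZT 10 (adjusted p = 0.00256) and -0.62 ± 0.19 at ZT 13 (adjusted p = 0.0257). The ZT 13 call was lost without control number 2 or knockout number 1 or 3 of that time (adjusted p up to 0.238). No rhythm of Pdp2 was called ad libitum in either genotype (ranges 0.30 and 0.31; adjusted p = 0.23 and 0.236). With time as a factor the knockout one was called (range 0.70, adjusted p = 0.0257).

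Pdp1, the calcium-sensitive phosphatase of muscle and other tissues, was scarce in liver and higher in the knockout. It was read 2 to 14 times per control library and 1 to 19.5 times per knockout library. The control libraries spanned 0.35 to 2.06 normalised CPM around a median of 1.04, and the knockouts 0.13 to 2.67 around 1.61. Its daily mean was 0.47 ± 0.16 higher (adjusted p = 0.0179). A rhythm was called in the knockout (range 0.92, peak at ZT 20.8 ± 1.2, adjusted p = 0.0281) and not in controls (0.33, adjusted p = 0.688), but the difference between the curves did not pass (adjusted p = 0.797). The knockout rhythm was lost in 4 of the 48 fits without 1 library (adjusted p up to 0.0787): knockout ZT 7 number 1, ZT 10 number 3, and ZT 19 numbers 1 and 3. It was also lost with time as a factor (range 1.30, adjusted p = 0.134).

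Endothelial and stellate markers moved the same way as Pdp1 and Pdk4. The 19 endothelial markers summed to a median of 0.0293% of counts in ad libitum controls (0.0193 to 0.0477%) and 0.0383% in knockouts (0.0236 to 0.0498%), and the 10 stellate markers to 0.0251% (0.0133 to 0.0366%) and 0.036% (0.0199 to 0.0524%). The 12 hepatocyte markers had medians of 14.7% (11.6 to 16.6%) and 13.1% (10.9 to 15.2%), and no marker of these 3 lists had a median of 0. The 14 Kupffer markers were nearly level, with medians of 0.0366% and 0.0368%. At ZT 7, where the Pdk4 difference was largest, the endothelial sum was 0.0248 to 0.0297% in controls and 0.036 to 0.0418% in knockouts. Their part in the results on the members was not tested. In these bulk samples, fewer cells of a type and less RNA per cell cannot be told apart.

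Pdha1, the substrate of these enzymes, was nearly level. It ranged from 110.7 to 169.9 normalised CPM in controls and from 113.5 to 155.9 in knockouts, with medians of 130 and 125.5. The daily means differed by -0.06 ± 0.04 (95% interval -0.13 to 0.01, adjusted p = 0.223). A small control rhythm was called (range 0.22, peak at ZT 15.1 ± 1.2, adjusted p = 0.03), and this was lost without control ZT 16 number 1 or 3 (adjusted p up to 0.0932). It was also lost with a 12-hour term added (0.0787), with time as a factor (0.227) and without the libraries that stood apart (0.128).

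**Figure D2:**
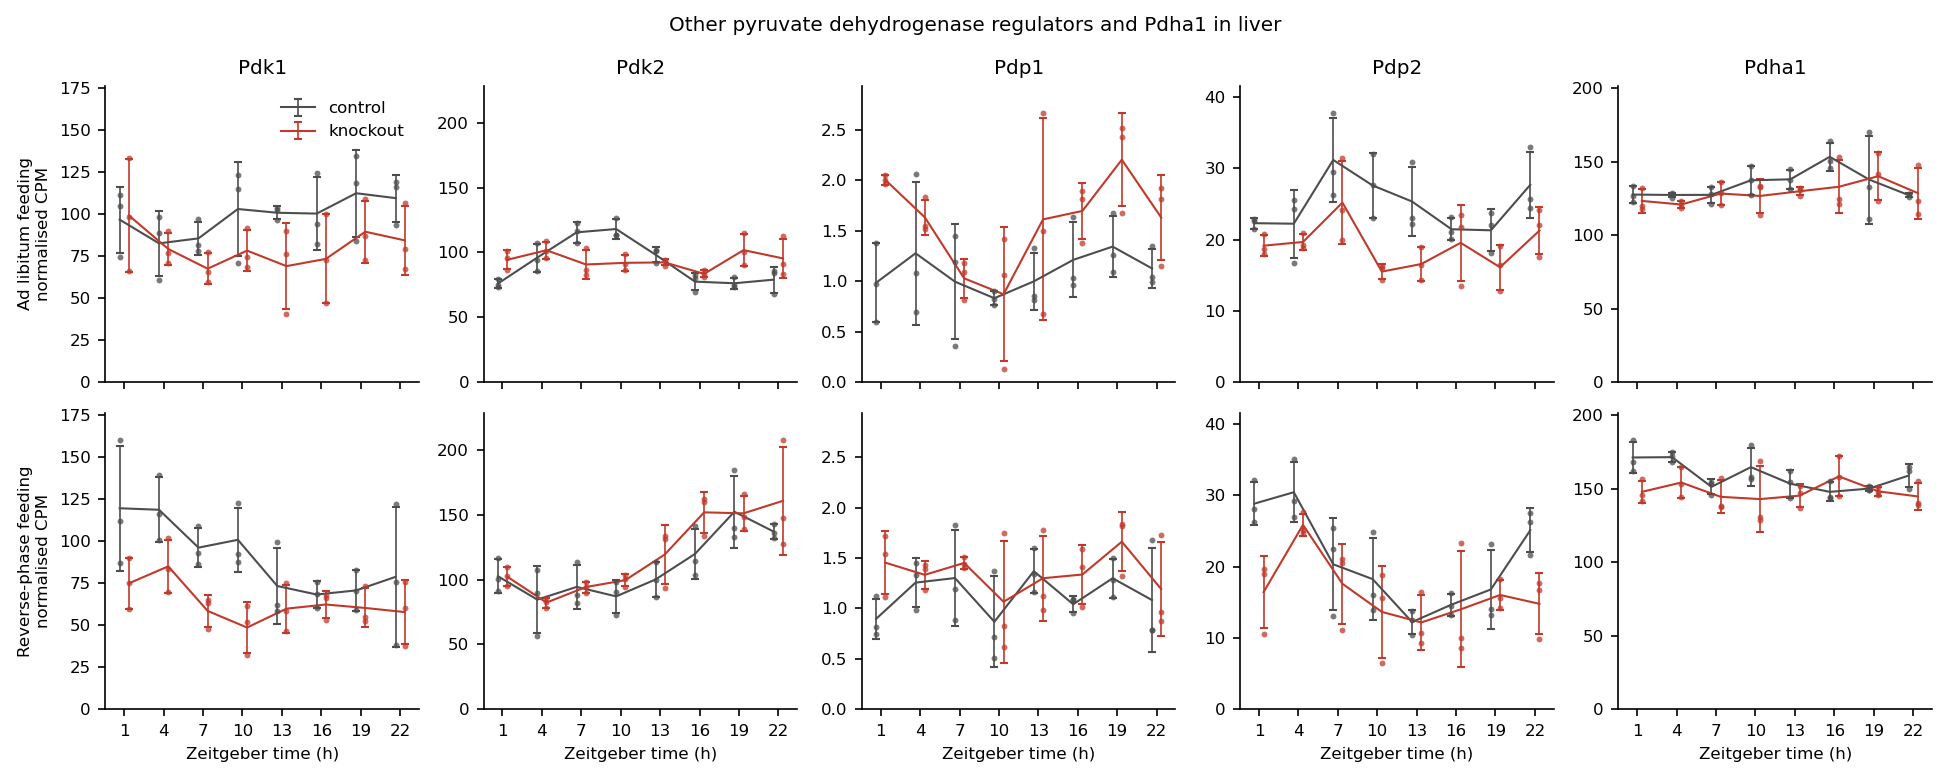
The other members tested under both schedules, in normalised CPM against zeitgeber time in hours, ad libitum above and reverse-phase below, with 1 vertical scale per gene. Points are libraries, lines join group means and bars are SD over 3 libraries; ad libitum the Pdk2 control line (grey) is high at ZT 7 and ZT 10 and the knockout line (red) is flatter, and Pdk1 and Pdp2 knockout lines lie mostly below the control lines.

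In all, 4 of the 6 members tested ad libitum were called for the genotype effect, against 27.2% of all genes. Pdk4 and Pdp1 were higher in the knockout (13.7% of genes) and Pdk1 and Pdp2 lower (13.5%). The median difference of the 6 was -0.006, beside -0.004 over all genes. Rhythms were called for 3 of 6 members in controls (48.1% of genes) and 2 of 6 in knockouts (44.1%), near the background, and a rhythm difference for 1 (3.31%). The genotype difference at any time was called for 3 of 6 (19%).

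By time, 2 of 6 members were called at ZT 7 (5.32% of genes), 3 at ZT 10 (7.16%), 1 at ZT 13 (9.88%) and 1 at ZT 19 (2.71%). None was called at ZT 1 (2.67%), ZT 4 (1.6%), ZT 16 (3.35%) or ZT 22 (2%), where edgeR gave 2, 0, 0 and 2 members with an unadjusted p under 0.05. DESeq2 made 7 member calls over the 8 times, as many as edgeR. Groups without overlap also occurred at times without a call, for Pdk1, Pdk2, Pdp1, Pdp2 and Pdha1. How often other genes separate this way was not counted, under either schedule.

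**Figure D3:**
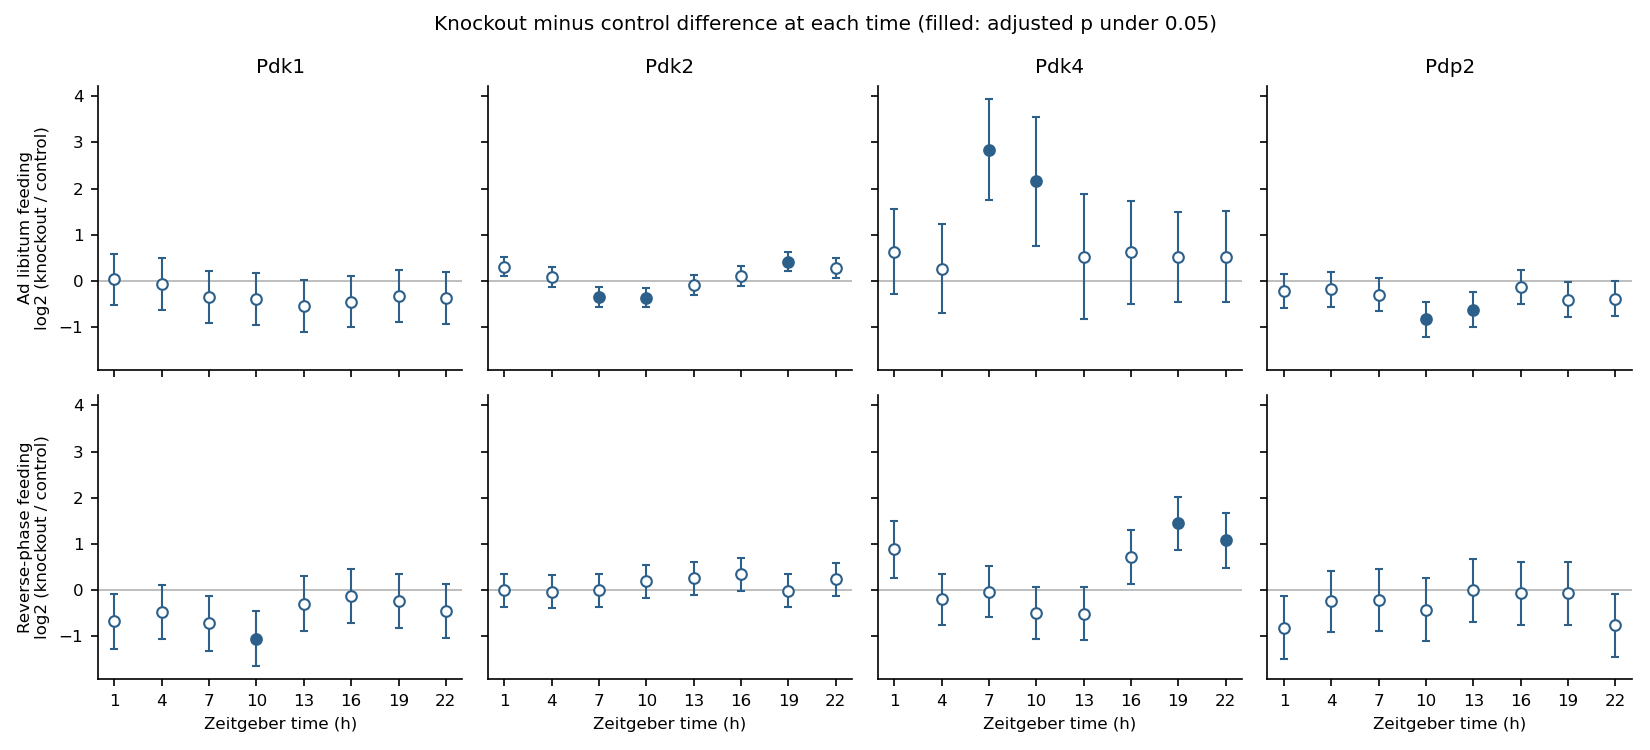
Knockout minus control difference on the log2 scale at each zeitgeber time (hours) for Pdk1, Pdk2, Pdk4 and Pdp2, ad libitum above and reverse-phase below. Points are edgeR estimates from 3 against 3 libraries, bars are 95% confidence intervals and filled points have an adjusted p under 0.05. The Pdk4 excess is called at ZT 7 and ZT 10 ad libitum and at ZT 19 and ZT 22 under reverse-phase feeding.

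Under reverse-phase feeding, the Pdk4 difference was called at ZT 19 and ZT 22, at night, and not at ZT 7 or ZT 10. At ZT 19 the controls had 10.5, 6.66 and 6.38 normalised CPM and the knockouts 15.7, 20.7 and 28.0. At ZT 22 the controls had 6.69, 7.39 and 5.80 and the knockouts 13.7, 12.6 and 15.7. The groups did not overlap at either time. At ZT 7, where the ad libitum groups stood far apart, the controls had 27.7, 25.2 and 19.7 and the knockouts 26.4, 20.4 and 24, and these overlap. Of the times without an edgeR call, the knockout libraries lay above all controls at ZT 1 (means 8.3 and 4.5). They lay below all controls at ZT 13 (means 8.3 and 11.8).

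The difference was 1.45 ± 0.29 at ZT 19 (adjusted p = 0.00232) and 1.08 ± 0.29 at ZT 22 (adjusted p = 0.0222). Leaving out control number 1 or 3 or knockout number 1 or 3 at ZT 22 lost the second call (adjusted p up to 0.123). The daily mean was 0.39 ± 0.17 higher, which missed the threshold (95% interval 0.05 to 0.73, adjusted p = 0.0847). It passed with time as a factor in place of the curve (0.36, adjusted p = 0.00559).

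The Pdk4 rhythm in reverse-phase controls had a range of 1.90 and peaked at ZT 7.68 ± 0.67 (adjusted p = 7.66e-05). Control means rose from 4.53 ± 0.79 normalised CPM at ZT 1 to 22.5 ± 4.3 at ZT 4 and 24.2 ± 4.1 at ZT 7, and then declined to 6.63 ± 0.80 at ZT 22. The knockout means had 2 high points, 23.6 ± 3.0 at ZT 7 and 21.5 ± 6.2 at ZT 19, with 8.27 ± 1.67 at ZT 13 between them. A 24-hour curve gave the knockout a range of 0.51 (adjusted p = 0.48). With a 12-hour term added the range was 1.77 (adjusted p = 7.75e-05). The difference between the genotypes' 24-hour curves had a range of 1.84 and an adjusted p of 0.075. It was called with the 12-hour term (adjusted p = 0.00546) and with time as a factor (0.00496). DESeq2 called it (adjusted p = 0.0283), as did 4 of the 48 edgeR fits without 1 library (as low as 0.0355): without control ZT 19 number 1, knockout ZT 1 number 1 or 2, or knockout ZT 7 number 1.

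Stellate and endothelial markers differed at the times of the reverse-phase Pdk4 calls too, and their medians over all times also differed. At ZT 19 the 10 stellate markers summed to 0.021 to 0.0244% of counts in controls and 0.0346 to 0.0423% in knockouts, and the endothelial markers to 0.0263 to 0.0409% and 0.0426 to 0.0429%. At ZT 22 the stellate sums were 0.0218 to 0.0253% and 0.0269 to 0.0319%, and the endothelial sums 0.0221 to 0.0305% and 0.0312 to 0.0454%. None of these pairs of groups overlap. Over the 24 libraries of each genotype the hepatocyte sum had medians of 13.1% in controls and 11.6% in knockouts. In the same order the medians were 0.0249% and 0.0332% for stellate and 0.0334% and 0.0399% for endothelial markers. Those of the 14 Kupffer markers were nearly level, at 0.0388% and 0.0394%. The part of these cells in the Pdk4 difference was not tested.

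A rhythm of Pdk2 was called in both genotypes under reverse-phase feeding, with fitted peaks in the dark phase. At ZT 19 the controls had 140, 133 and 184 normalised CPM and the knockouts 139.0, 165.8 and 148.7. The ZT 10 values were 90.7, 72.6 and 97.8 in controls and 104, 100.5 and 94.3 in knockouts, lower than those of ZT 19 in both genotypes. The range was 0.76 in controls, with a peak at ZT 19.4 ± 0.6 (adjusted p = 2.54e-05), and 0.92 in knockouts, with a peak at ZT 18.3 ± 0.5 (adjusted p = 1.42e-06). The difference between the curves was not called (range of the difference 0.28, adjusted p = 0.846). Its daily means differed by 0.12 ± 0.06, which missed the threshold (95% interval -0.008 to 0.25, adjusted p = 0.163).

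Pdk1 was again lower in the knockout. Over the 24 libraries of each genotype it ranged from 38.4 to 160 normalised CPM in controls (median 87.1) and from 32.2 to 101.7 in knockouts (median 62.2). At ZT 10 the controls had 92.3, 87.6 and 122.5 and the knockouts 61.5, 52.0 and 32.2, without overlap. The daily mean fell by 0.50 ± 0.10 (adjusted p = 0.000138), and the difference at ZT 10 was -1.05 ± 0.29 (adjusted p = 0.0333). The ZT 10 call was lost without control number 1 or 3 or knockout number 2 or 3 (adjusted p up to 0.181). A rhythm was called in controls (range 0.82, peak at ZT 4.40 ± 0.95, adjusted p = 0.00448), not with time as a factor (adjusted p = 0.0694). Pdk3 was read 1.5 to 13.5 times per library and gave no call. Its daily means differed by 0.12 ± 0.19 (95% interval -0.26 to 0.50, adjusted p = 0.685).

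Pdp2 fell by 0.31 ± 0.11 in its daily mean (adjusted p = 0.0367). This call was at the edge: it was lost in 18 of the 48 fits without 1 library, 8 of them control and 10 knockout libraries (0.00871 to 0.0725) and with no filter on low genes (0.057). Pdp2 was rhythmic in both genotypes here. In controls the range was 1.20 with a peak at ZT 2.15 ± 0.73 (adjusted p = 0.000211), and the libraries ran from 10.4 normalised CPM at ZT 13 to 35.2 at ZT 4. In knockouts the range was 0.70 with a peak at ZT 3.04 ± 1.23 (adjusted p = 0.0376), and this was lost in 8 of 48 fits without 1 library (up to 0.11). These were knockout ZT 1 number 2, all 3 of ZT 4, ZT 13 numbers 1 and 3, and ZT 16 numbers 2 and 3. It was lost as well with time as a factor (adjusted p = 0.146) and with no filter on low genes (0.0503).

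Pdp1 had medians of 1.12 and 1.40 normalised CPM in reverse-phase controls and knockouts. The difference of 0.25 ± 0.12 missed the threshold (95% interval -0.001 to 0.50, adjusted p = 0.137). Pdha1 fell by 0.10 ± 0.03 in its daily mean (adjusted p = 0.0207), from a median of 156 to 146. The call was lost without control ZT 10 number 3 or knockout ZT 10 number 1 (adjusted p up to 0.0545) and with no filter on low genes (0.0541).

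Under reverse-phase feeding 3 of 7 members were called for the genotype effect (26.9% of genes). All 3 were lower in the knockout (14.2%), and none was called higher (12.7%); Pdk4, with an unadjusted p under 0.05, was the nearest, and DESeq2 called 3 members as well. The median of the 7 was 0.121, beside -0.006 over all genes. Rhythms were called for 4 of 7 in controls (41.2%) and 2 of 7 in knockouts (36.8%). A rhythm difference was called by edgeR for 0 of 7 (1.48%), with 1 at an unadjusted p under 0.05 and 1 called by DESeq2. The test at any time called 2 of 7 (15.5%), Pdk1 and Pdk4, and DESeq2 called 3.

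By time, 1 of 7 members was called at ZT 10 (3.93% of genes), ZT 19 (2.08%) and ZT 22 (4.37%). None was called at ZT 1 (5.37%), ZT 4 (3.66%), ZT 7 (3.13%), ZT 13 (1.56%) or ZT 16 (2.67%), where edgeR gave 4, 0, 1, 0 and 1 members with an unadjusted p under 0.05. DESeq2 made 4 member calls over the 8 times, the additional one for Pdk4 at ZT 1 (adjusted p = 0.0456). Groups without overlap were also seen at times without an edgeR call, for Pdk1, Pdk3, Pdk4, Pdp2 and Pdha1.

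In a joint fit of both liver tables, the daily rhythm differed between schedules for 5 of 6 members in control liver and for 1 of 6 in knockout liver. In control liver the called members were Pdk4 (range of the difference between the curves 4.31, adjusted p = 2.48e-08), Pdk2 (1.39, adjusted p = 1.58e-11), Pdp2 (1.17, adjusted p = 0.00112), Pdk1 (1.13, adjusted p = 0.00156) and Pdha1 (0.36, adjusted p = 0.00325). Pdp1 was not called (0.46, adjusted p = 0.627). Of all genes 53.6% were called. In control liver the fitted peak lay at ZT 23.65 ad libitum and ZT 7.68 under reverse-phase feeding for Pdk4, and for Pdk2 it lay at ZT 8.64 and then at ZT 19.4.

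In knockout liver 49% of genes and 1 of 6 members had a rhythm that differed between schedules. This was Pdk2 (0.95, adjusted p = 3.23e-06), whose knockout rhythm was called under reverse-phase feeding and not ad libitum. Pdk4 had a range of 1.59 and an adjusted p of 0.0524. It passed with DESeq2 (0.0466) and without replicate number 2 (0.0285). Whether the shift with schedule differed between genotypes was not tested. Other differences between the tables, depth among them, cannot be told apart from feeding.

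A genotype effect on the daily mean that differed by schedule was called for 0 of the 6 members tested (0.207% of 13535 genes called). DESeq2 also gave 0, and 1 member had an unadjusted p under 0.05 with edgeR. That was Pdk4, whose effect was smaller under reverse-phase feeding by 0.62 ± 0.28 (95% interval of the difference -1.17 to -0.08, adjusted p = 0.602).

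As shares of the summed level per kilobase of the 4 kinases, Pdk2 made up most of the kinase RNA in liver, with a mean of at least 55.1% in each group. Pdk4 took 2.23 ± 1.65% (SD, n = 3) of the kinase sum in ad libitum controls at ZT 7 and 16.7 ± 4.3% in knockouts. The library shares, 0.92 to 4.08% and 11.9 to 20.3%, did not overlap. At ZT 10 it took 0.88 ± 0.45% and 5.07 ± 2.45%. Under reverse-phase feeding the shares of Pdk4 at ZT 19 were 2.77 ± 0.99% and 7.31 ± 1.99%. The kinase sum itself was 69.6 ± 1.4 normalised CPM per kilobase in ad libitum controls and 64.6 ± 10.6 in knockouts at ZT 7, a difference within the spread. The sum of both phosphatases at ZT 10 was 8.10 ± 1.28 in controls and 4.64 ± 0.24 in knockouts. These shares and sums are given as description, with no test.

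**Figure D4:**
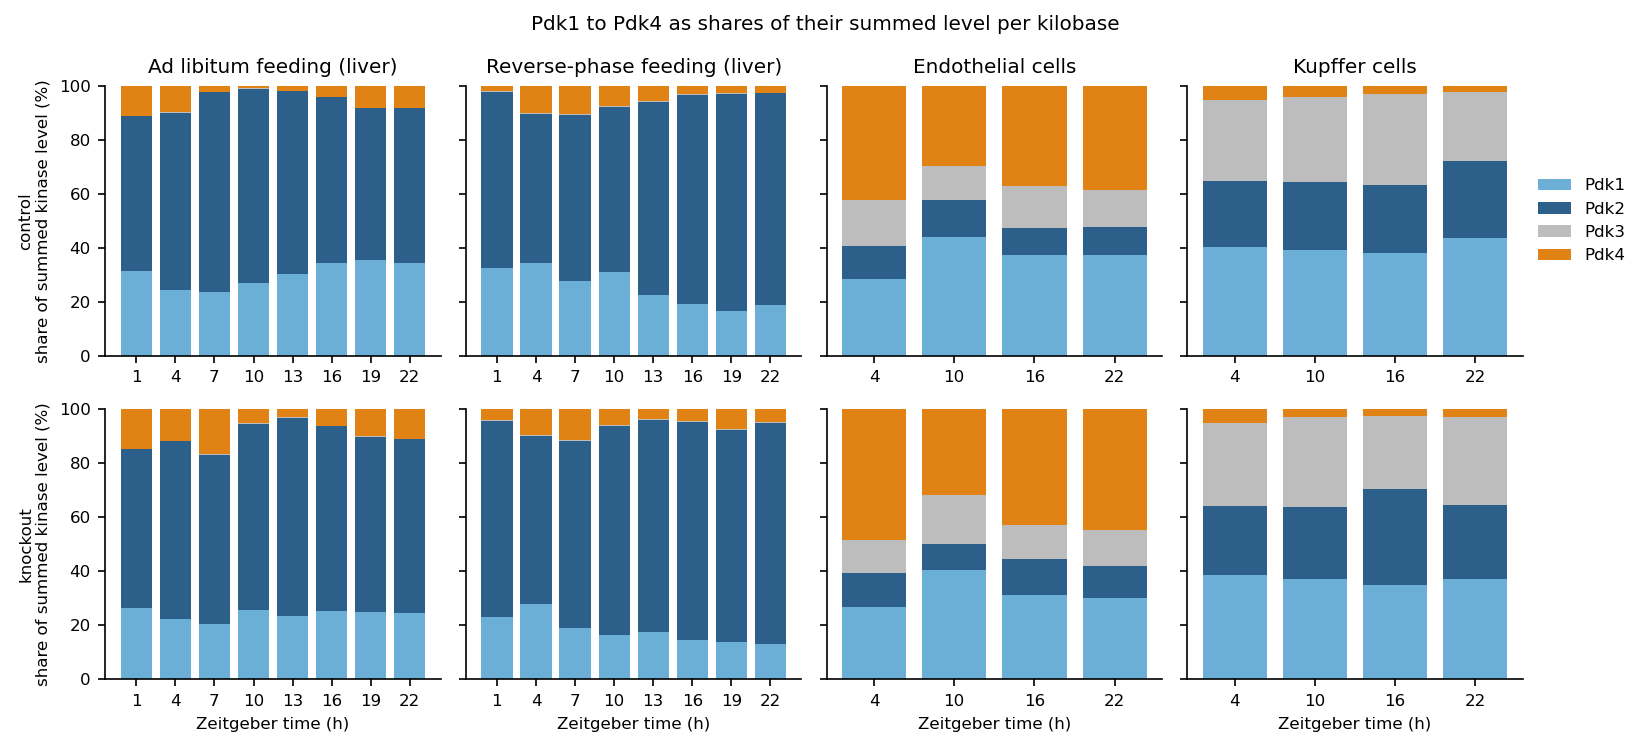
Pdk1 to Pdk4 as mean shares (%) of their summed level per kilobase at each zeitgeber time in hours, controls above and knockouts below, for both liver schedules and both isolated cell types. Each stacked bar is the mean of 3 libraries; in liver Pdk2 fills most of each bar and Pdk4 takes 16.7% of the knockout bar at ZT 7 ad libitum beside 2.23% in the control, and in the isolated cells Pdk3 is a visible part.

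Beside the members, called genes of the complex itself differed by at most 0.24 on the log2 scale, and genes of pyruvate metabolism changed in both directions. Of all genes tested, 27.2% were called ad libitum and 26.9% in the other table, and the share called in the complex ad libitum lies near that. Of the 6 tested genes of the pyruvate dehydrogenase complex, Pdha1 included, 2 rose and 0 fell ad libitum: the shared E3 subunit Dld (0.21 ± 0.04, adjusted p = 8.9e-06) and the E3-binding subunit Pdhx (0.21 ± 0.04, adjusted p = 0.000243). Under reverse-phase feeding 2 rose, Dld (0.19) and Pdhx (0.24), and 2 fell, the E2 subunit Dlat (-0.19) and Pdha1. The medians of the list were 0.083 and 0.055. In the sister complex that breaks down branched-chain ketoacids, 3 of 5 genes rose and 2 fell ad libitum. Its kinase Bckdk fell by 0.25 ± 0.06 and its phosphatase Ppm1k fell by 0.32 ± 0.08, while Dbt and Bckdhb rose by 0.16 each. Under reverse-phase feeding 3 rose and 1 fell.

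Of 13 genes that supply, carry or use pyruvate otherwise, 3 rose and 4 fell ad libitum. Under reverse-phase feeding 4 rose and 4 fell. Of all genes, 27.2% were called ad libitum and 26.9% under reverse-phase feeding. Pcx, pyruvate carboxylase, rose by 0.39 ± 0.04 and 0.44 ± 0.05. The monocarboxylate carriers went apart: Slc16a1 rose by 0.52 ± 0.06 and 0.45 ± 0.04, and Slc16a7 fell by 0.89 ± 0.08 and 1.03 ± 0.08. Of 6 genes that make or use acetyl-CoA or export citrate, citrate synthase Cs rose alone ad libitum (0.25 ± 0.04). Under reverse-phase feeding Cs rose by 0.10 and 4 genes of fat synthesis and citrate export fell, Fasn by 0.84, Acacb by 0.72, Acly by 0.30 and Slc25a1 by 0.28. Of 6 genes of lipoate synthesis, which make the cofactor of the complex, 0 rose and 1 fell ad libitum, and on the reverse-phase schedule 0 rose and 3 fell, Lipt2 the most (-0.35).

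Pdk4 is a known target of the fatty acid receptor PPARα and was called higher ad libitum. Most other PPARα targets and ketogenic genes of the list were called lower. Of 22 tested, 3 rose and 14 fell ad libitum (median -0.466), and under the other schedule 2 rose and 14 fell (median -0.487), beside -0.004 and -0.006 over all genes. Acot1 fell by 1.86 ± 0.13 and 2.15 ± 0.16, Acaa1b by 1.44 ± 0.08 and 1.65 ± 0.09, and Acot2 by 1.30 ± 0.12 and 1.20 ± 0.13. Of 16 transcription factors known to act on Pdk4, 2 rose and 5 fell ad libitum. Under reverse-phase feeding 4 rose and 6 fell. Over all genes 27.2% were called ad libitum and 26.9% under reverse-phase feeding. Ppard, which encodes PPARδ, rose by 1.62 ± 0.13 and 1.85 ± 0.12 (adjusted p = 2.08e-13 and 1.19e-17). The orphan receptor gene Esrrg fell by 1.04 ± 0.18 and 1.25 ± 0.17, and Pparg fell by 0.79 ± 0.11 and 0.82 ± 0.08. The part of any of these genes in the Pdk4 difference was not tested.

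The genes whose pattern was most like that of each member were found by Pearson's r over the 16 ad libitum group means, among 11104 genes, and are given without a test. For Pdk4 these included Il4ra (r = 0.941), Pnrc1 (0.939) and Mocos and Rabep1 (both 0.935), and over the 16 reverse-phase groups these genes had r of 0.171, 0.524, 0.425 and 0.276. For Pdk2 they were Fn3k (0.869 and 0.937), Abhd14b (0.852 and 0.8) and Fdxr (0.838 and 0.433). For Pdk1 they were Pcyt1a (0.892 and 0.902), Acot4 (0.889 and 0.857) and Endod1 (0.877 and 0.808), and for Pdp2 Stat6 (0.869 and 0.599), Farp1 (0.868 and 0.735) and Rnf186 (0.862 and 0.543). The genes named for Pdk1 had an r of at least 0.808 in the other table, and those named for Pdk4 had at most 0.524. All were chosen for a high ad libitum r, which by itself favours a lower r in the other table. Whether the members differ in this was not tested. Hgd, Tpi1 and Ascc3 lay closest to Pdp1 (0.886, 0.876 and 0.857 against 0.235, 0.077 and -0.236) and Picalm, Lrrfip2 and Tgs1 to Pdha1 (0.879, 0.865 and 0.865 against 0.635, 0.621 and 0.712). Group means of a table share its libraries and its genotype split.

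In isolated endothelial and Kupffer cells the mix of kinases was another one, and no member was called for genotype. These tables hold quantile-normalised signal of unknown depth and were scaled apart from the liver tables, so levels are compared within a table only. Knockout here names the genotype of the mice, whose deletion the design text places in hepatocytes. In endothelial cells the median signal per kilobase was 129.5 for Pdha1, 49.4 for Pdk4, 47.2 for Pdk1, 18.9 for Pdk3 and 13.5 for Pdk2. Pdk4 and Pdk1 overlap (27.4 to 70.0 and 23.9 to 63.5), as do Pdk3 and Pdk2 (11.5 to 29.3 and 10.5 to 21.6). In Kupffer cells it was 161 for Pdha1, 38.5 for Pdk1, 30.1 for Pdk3, 24.8 for Pdk2 and 3.46 for Pdk4. Of the phosphatases, Pdp1 was above Pdp2 in endothelial cells (14.5 and 10.5, with overlapping ranges) and below it in Kupffer cells (7.99 and 20.9, without overlap). Endothelial libraries had 2.35 to 3.49% of their signal in the 19 endothelial markers, but also up to 3.21% in hepatocyte markers, 0.577 to 0.969% in Kupffer markers and 0.267 to 0.6% in stellate markers. Kupffer libraries had 3.22 to 3.78% in the 14 Kupffer markers, 0.132 to 1.61% in hepatocyte markers and 0.19 to 0.396% in endothelial markers. The part of RNA of other cell types in these levels was not tested.

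**Figure D5:**
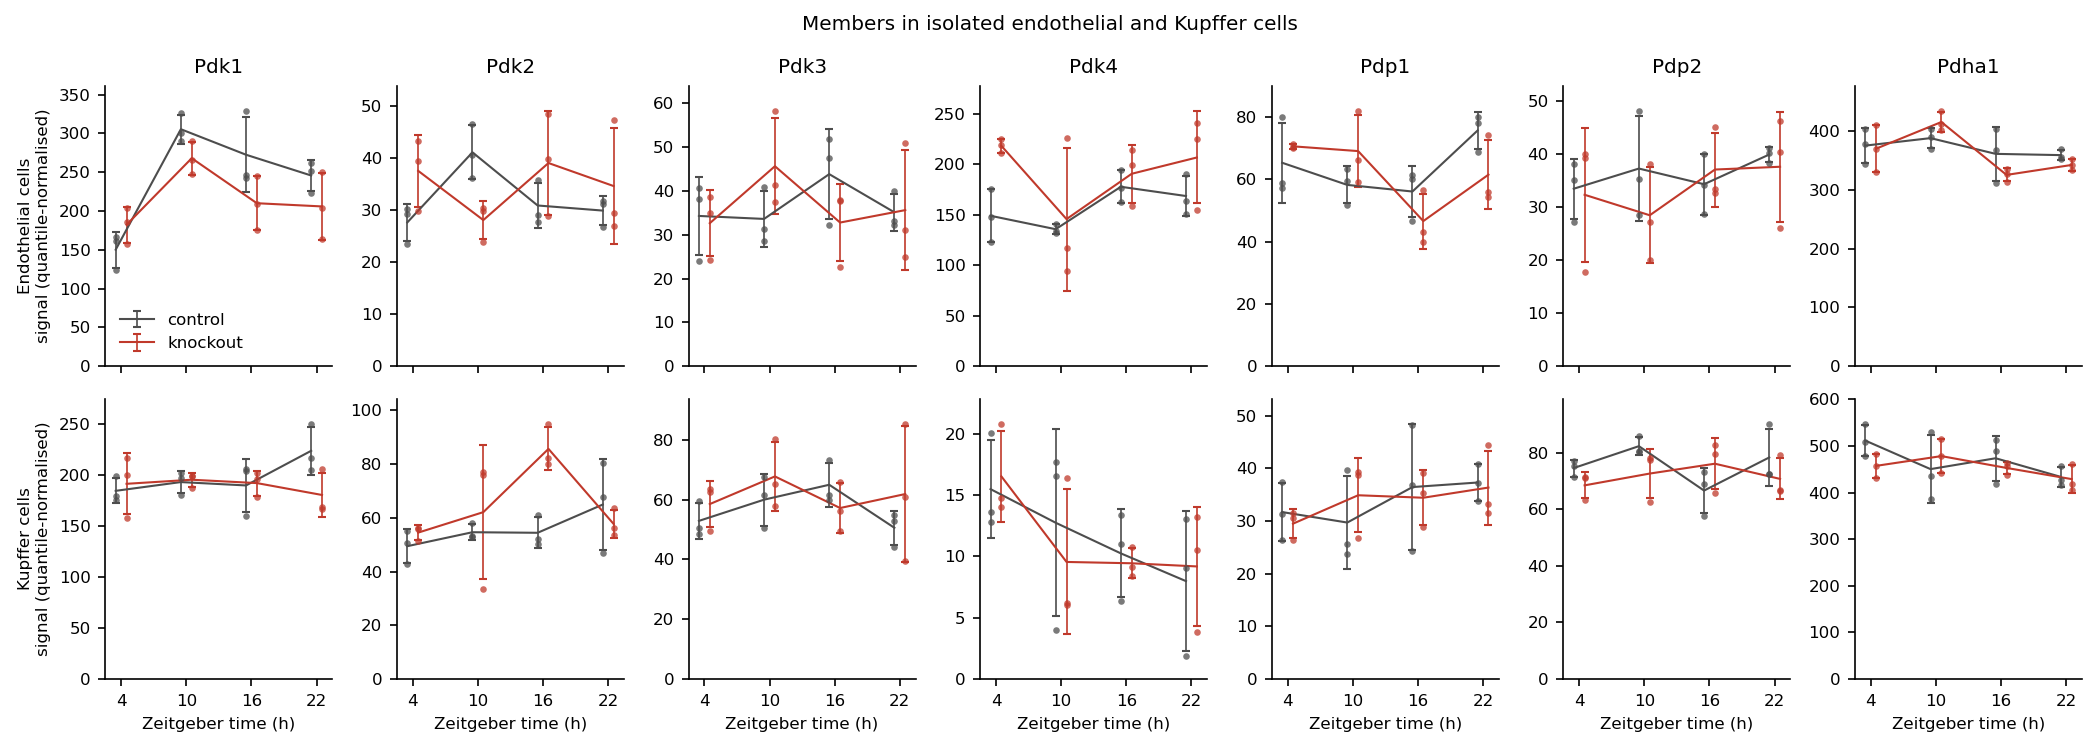
All members in isolated endothelial (above) and Kupffer cells (below), as quantile-normalised signal against zeitgeber time in hours, with a vertical scale for each panel. Points are libraries, lines join means and bars are SD over 3 libraries, grey for control and red for knockout; the endothelial Pdk1 control line is lowest at ZT 4, and most other panels show overlapping genotypes.

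In endothelial cells the genotype effect was called for 0 of 7 members by limma (0.0319% of 12523 genes), and 0 had an unadjusted p under 0.05. Pdk4 had the smallest p, with a difference of 0.23 ± 0.12 on the log2(value + 1) scale (95% interval -0.008 to 0.47, adjusted p = 0.927). At ZT 4 the control libraries had 176, 123 and 148 units of Pdk4 signal and the knockouts 219.5, 210.8 and 224.7, without overlap. That difference of 0.56 ± 0.22 was not called (adjusted p = 0.988), as 0% of genes were at this time, although 575 genes and 1 member had an unadjusted p under 0.05. Gene counts by time in this table moved with the 2 libraries that stood apart. Without them 5, 396 and 85 genes were called at ZT 4, ZT 10 and ZT 16, in place of 0, 1 and 0. All groups share 1 estimate of spread in this fit. Both of these libraries were knockouts of ZT 22. That group then keeps 1 library, so its count is not given. Of the members 0 were called without them at ZT 4, ZT 10 or ZT 16.

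Pdk1 had the one member rhythm called in the isolated cells. Endothelial control libraries had 124, 161 and 166 units at ZT 4 and 290, 326 and 300 in the ZT 10 group. They had 328, 246 and 243 in the ZT 16 group and 261, 252 and 224 in the ZT 22 group. The ZT 4 libraries lay below all the others. The range was 0.91 with a peak at ZT 14.7 ± 0.9 (adjusted p = 0.0351; 1 of 7 members and 6.13% of genes called). It was lost in 8 of 24 fits without 1 library (adjusted p up to 0.0958): all 3 controls of ZT 4, all 3 of ZT 10, ZT 16 number 1 and ZT 22 number 3. It was called without the endothelial libraries that stood apart (adjusted p = 0.0221). In endothelial cells of knockout mice 0 of 7 members were called (13.2% of genes), with 3 at an unadjusted p under 0.05. Without the libraries that stood apart 1 was called, Pdp1 (range 0.72, adjusted p = 0.0243). The rhythm difference was called for 0 of 7 (2.04%), with 0 at that level.

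In Kupffer cells limma called 0 of 7 members for genotype (0.0244% of 12270 genes), for rhythm in controls (1.96%) and in knockouts (1.81%) or for the rhythm difference (0%). At an unadjusted p under 0.05 the counts were 0, 0, 1 and 0. No other tool was run on the isolated cells. Pdk2 at ZT 16 stood out by value, with 50.2, 52.1 and 61.1 units in controls and 94.8, 82.3 and 79.9 in knockouts. That difference of 0.65 ± 0.23 was not called (adjusted p = 0.999), and 0% of genes were at this time.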

How the data were processed

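RNA was sequenced from 96 liver libraries and from 48 libraries of isolated cells, made with TruSeq kits per the labels' protocols. STAR, HOMER and the mm9 build are named in the submitters' processing notes, with versions and settings not given in the sources used here. Liver tables as deposited hold expected counts per transcript, and the authors' counting had entered some reads as fractions, possibly by sharing them. Of the values 29.5% and 31.9% were not whole, and how the fractions arose was not tested. The liver counts were rounded before testing. The deposited endothelial and Kupffer tables hold a signal that appears quantile-normalised: all 24 columns of each share 1 set of sorted values. Their depth is unknown, and scaling of this kind hides any change common to most genes. The deposited length column, in bases, was used for levels per kilobase.

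For each symbol the row with the largest mean over the libraries of all tables, each scaled to its total, was kept. Liver counts were tested with edgeR 4.0.16 (R 4.3.3) by its quasi-likelihood test after TMM scaling and filterByExpr, and the signal values with limma 3.58.1, with a trend and robust fit, on log2(value + 1) for genes of at least 10 in 3 libraries. The main model gave each genotype a mean and a 24-hour cosine and sine; the rhythm range is the fitted peak minus the trough. A model with 1 mean per genotype and time gave the differences by time, and a joint fit of both liver tables the differences between schedules. P-values were adjusted by Benjamini-Hochberg over all genes tested, and each SE was derived from the estimate and its test statistic; 95% intervals use the t quantile at the degrees of freedom of that test. Scripts were tested on simulated data.

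Alternatives were DESeq2 1.42.0, other scaling, filters, pseudocounts, transcripts and curves, a replicate block, each library left out and, chosen after seeing the data, leaving out the libraries that stood apart. Whether shared replicate numbers mark pairs was not settled, since libraries of different numbers were not compared. Deviations of same-numbered libraries had r over 0.1 in 6 of 24 ad libitum and 9 of 24 reverse-phase pairs. The same held for 2 of 12 endothelial and 4 of 12 Kupffer pairs. The highest r was 0.27, 0.55, 0.23 and 0.44, in that order. The main tests treated the libraries as unpaired. The text names all 7 members, 4 clock genes as a check of the labels, up to 4 called genes per list and comparison with the largest change, and the 3 genes most like each member (5 for Pdk4, of which 1 is not reported here). The members and lists were chosen with earlier results of these data known.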

Additional observations from a re-analysis of the deposited data

Results flagged for a closer look

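Tests of a difference between groups singled out 7 results on the members. The Pdk2 rhythm differed between genotypes ad libitum, with a range of 0.75 on the log2 scale for the difference curve. In control liver the rhythm differed between feeding schedules for Pdk4 (4.31), Pdk2 (1.39), Pdp2 (1.17), Pdk1 (1.13) and Pdha1 (0.36). In knockout liver it differed between schedules for Pdk2 (0.95). Outlying samples within a group were not tested for by member, since each group holds 3 libraries.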

How the results depend on the processing

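Over all alternatives 13431 member comparisons were recomputed. Of these, 13292 kept their side of the threshold, 107 lost a call, 32 gained one and 0 called values changed sign; 218 values that were called in neither fit did. The count of members called moved by over 1.5 times in these cases. Under reverse-phase feeding the rhythm difference went from 0 to 1 with DESeq2, a second harmonic of 12 h or time as a factor, the genotype effect from 3 to 1 with no filter, and the knockout rhythm from 2 to 1 with no filter. In endothelial cells the control rhythm went from 1 to 0 with no filter, and the knockout rhythm from 0 to 2 with a mean value of at least 50 and to 1 without the libraries that stood apart. The knockout rhythm differing between schedules went from 1 to 2 with DESeq2 and with the replicate block. Leaving out 1 library gave 0 to 1 for the reverse-phase rhythm difference, 1 to 2 for the knockout rhythm under each schedule, 0 to 1 and 0 to 2 for the endothelial control and knockout rhythms, and 0 to 1 for the Kupffer knockout rhythm. By smaller steps, the ad libitum control rhythm went from 3 to 2 with a second harmonic, with time as a factor or without the libraries that stood apart, and the reverse-phase genotype effect from 3 to 4 with time as a factor and to 2 to 4 with 1 library left out. Leaving out a replicate number gave 1 to 2 for the knockout rhythm differing between schedules. The cause was not tested.

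Counts over all genes moved by over 1.5 times in these cases. The reverse-phase rhythm difference went from 205 to 330 genes with DESeq2 and 132 with time as a factor, the reverse-phase ZT 19 difference from 287 to 432 with DESeq2, and the genotype effect differing between schedules from 28 to 66 with DESeq2. The ad libitum ZT 16 difference went from 420 to 92 without the libraries that stood apart. The endothelial control rhythm went from 768 to 486 with no filter and 1364 without those libraries. The endothelial rhythm difference went from 256 to 62 with no filter, 426 with a mean of at least 50, 43 with time as a factor and 834 without those libraries, and with the replicate block it was lower by more than 1.5 times. The endothelial genotype effect went from 4 to 0 with a mean of at least 50 and 8 without those libraries, and at ZT 4 from 0 to 5 without them. Without them ZT 10 went from 1 to 396 and ZT 16 from 0 to 85. ZT 22 and the test at any time moved as well. ZT 22 then keeps 1 knockout library, so those counts are not given. With other pseudocounts, filters or the replicate block, endothelial ZT 10 gave 0 to 6 genes and any time 0 to 3. In Kupffer cells the knockout rhythm went from 222 to 125 with no filter, the genotype effect from 3 to 0 with a mean of at least 50, and ZT 16 from 0 to 1 and ZT 22 from 0 to 2 with no filter. Kupffer ZT 10 went from 0 to 1 with a pseudocount of 10, and any time from 2 to 1 with 0.5 and to 0 with a mean of at least 50.

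Depth limits Pdk3 and Pdp1 in liver, read 0 to 5.5 and 1 to 19.5 times per ad libitum library, and a smaller change in them was not detectable at this depth. Ad libitum libraries are shallower than reverse-phase ones.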
